A study of Mus musculus with 33 samples.

Results

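A pair of populations of *Zeb2*-targeted macrophages that had kept the surface phenotype of their tissue were compared by bulk RNA-seq. The 6 samples of Tim4+ Kupffer cells (KCs) were sorted from the liver of Clec4f-crexZeb2fl/fl mice, and the 5 samples of CD11b- alveolar macrophages (AMs) from the lung of Itgax-crexZeb2fl/fl mice. They were chosen by their sample labels and make up 11 of the 33 samples of the series, and all 24421 genes of the files were considered. Each sample held 25000 sorted cells of C57Bl/6 mice, 6 to 8 weeks old. The comparison samples were CRE- KCs (n = 6) and CRE- AMs (n = 5) of Zeb2fl/fl littermates, which carry the floxed alleles without Cre, and the Tim4- KCs (n = 6) and CD11b+ AMs (n = 5) of the same Cre crosses. Several features of the mice limit what the groups stand for. Cre was placed behind the stop codon of *Clec4f* in the KC strain, so that *Clec4f* counts come from a targeted locus, and some B cells also show its activity. *Itgax-cre* is active in other CD11c+ cells than AMs. The floxed construct leaves a truncated *Zeb2* transcript that can still be counted. The sort was on Tim4 and CD11b, and neither is a marker of deletion. By genomic PCR, the study found KCs without surface SiglecF and AMs without surface EpCam in these strains to be heterozygous for the deletion. Such KCs included Tim4+ cells. Tim4+ KCs and CD11b- AMs may therefore mix heterozygous with fully deleted cells, and the share of each was not measured in these samples. Tissue and Cre strain cannot be told apart between these groups. The labels do not say whether samples of a group came from separate mice, so p-values measure only the spread between samples.

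KCs are the resident macrophages of the liver sinusoids, where they clear particles, complement-coated microbes and aged red blood cells from the blood. AMs live in the airspaces and clear surfactant, and their lipid handling depends on the nuclear receptor PPARγ and the cytokine GM-CSF. ZEB2 and its relative ZEB1 are zinc-finger transcription factors best known as repressors of epithelial genes.

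Between 18566846 and 22539574 reads were counted on genes in the Tim4+ KC libraries, and between 17454078 and 23945366 in the CD11b- AM libraries. A count was present for 13724 to 14313 genes in Tim4+ KCs and for 12500 to 13008 genes in CD11b- AMs. Levels are given as CPM (reads of a gene per 1e+06 reads counted on genes in the library, with no further scaling), which compare a gene between samples but not genes with each other. In bulk samples, fewer cells of a type and less RNA per cell cannot be told apart. The markers followed both labels. The summed level of 20 KC identity genes was 29110 to 35230 CPM in Tim4+ KCs and 99.98 to 126.6 CPM in CD11b- AMs, and that of 21 AM identity genes was 1422 to 1865 CPM against 31530 to 40160 CPM. Genes of the Y chromosome marked Tim4+ KC replicates 5 and 6, with 76.5 and 78.9 CPM of *Ddx3y* and no *Xist*. *Ddx3y* was at most 0.133 CPM in the other 4 Tim4+ KC libraries and at 0 in the 5 CD11b- AM libraries, and *Xist* was counted in all of these, so no CD11b- AM library had the Y-linked pattern of replicates 5 and 6. Without these 2 replicates, *Krt18*, *Cd14* and *Ccna2* lost their call between Tim4+ KCs and CD11b- AMs. *Timd4* lost its call in the comparison with CRE- cells when replicates 5 and 6 of both Tim4+ and CRE- KCs were left out.

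RNA of other cell types differed between the tissues. The 7 measured marker genes of liver endothelium were all higher in Tim4+ KCs, and their summed level was 1518, 2939, 2149, 1147, 1010 and 1123 CPM in replicates 1 to 6, compared with 4.98 to 15.8 CPM in CD11b- AMs. The 8 hepatocyte markers summed to 1708 to 3130 CPM in Tim4+ KCs and to 2531 to 3724 CPM in CD11b- AMs, nearly all of it *Trf*, the transferrin gene (1577 to 2740 CPM and 2531 to 3724 CPM). The other 7 summed to 130.7 to 390.4 CPM in Tim4+ KCs, where *Alb*, which encodes albumin, had 68.7 to 203 CPM, and to at most 0.0944 CPM in CD11b- AMs, with 6 of them at 0 in every library. The 5 measured B cell markers summed to 24.2 to 53.8 CPM in Tim4+ KCs and to 2.41 to 4.99 CPM in CD11b- AMs, and 5 monocyte markers to 97.6 to 338 CPM and 11.4 to 25.3 CPM. In the other direction, 6 measured neutrophil markers summed to 92.5 to 130 CPM in Tim4+ KCs and to 815 to 2403 CPM in CD11b- AMs. The CD11b- AM sum rested on *S100a8*, *S100a9* and *Cxcr2*, whereas the neutrophil genes *Retnlg* and *Mmp9* were at or near 0 there (at most 0.154 and 0.0513 CPM). The Tim4+ KC sum did not rest on *S100a8* and *S100a9*, which were far lower there (log2 fold changes of -11.29 and -10.57 in the fit with CRE- cells). *Csf3r*, another of the 6, was not called between the groups and had 90.82 to 125.6 CPM in CD11b- AMs. Lung epithelial markers summed to 444 to 533 CPM in CD11b- AMs, almost all of it *Epcam* and *Cdh1*, while *Sftpc*, the surfactant protein C gene of alveolar epithelium, had 14.7 to 24.1 CPM there and was at 0 in Tim4+ KCs, as were 4 of the other 7. What part these cells had in the differences below was not tested.

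The targeted gene, *Zeb2* (chromosome 2, 44983632 to 45117395, minus strand, GRCm38), was still counted in both groups. It had 150 to 218 CPM (median 169) in Tim4+ KCs and 115, 111, 85.7, 112 and 106 CPM in CD11b- AMs. The groups did not overlap, and the difference of 0.75 ± 0.11 (log2 fold change ± SE, adjusted p = 3.76e-05) was below the cut-off of 1 used for calls. Compared with their CRE- counterparts, *Zeb2* was lower by a similar step in both tissues, with log2 fold changes of -0.72 in Tim4+ KCs (adjusted p = 2.89e-05) and -0.89 in CD11b- AMs (adjusted p = 3.82e-06). *Zeb1* was higher in Tim4+ KCs, at 12.1 to 27.8 CPM (median 19.0) against 1.03, 4.43, 5.34, 5.21 and 1.93 CPM (log2 fold change 2.46 ± 0.38, adjusted p = 5.71e-05).

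The genes used for sorting and for driving Cre lay in the tissue of the label. *Timd4* (chromosome 11, 46810800 to 46844332), which encodes the phosphatidylserine receptor Tim4, had 286 to 454 CPM (median 405) in Tim4+ KCs and 0.205, 0, 0.283, 0 and 0 CPM in CD11b- AMs. *Clec4f* (chromosome 6, 83644542 to 83656187), the C-type lectin gene that carries Cre in the KC strain, had 4892 ± 466 CPM (SD, n = 6) in Tim4+ KCs and no count in CD11b- AMs, and was therefore at least 32989-fold higher against a floor of 3 counts per library. *Itgax* (chromosome 7, 128129547 to 128150657), which encodes CD11c, was the reverse, with 28.7 to 54.4 CPM (median 44.1) in Tim4+ KCs and 1094, 1166, 983, 925 and 1014 CPM in CD11b- AMs. *Itgam*, the gene for CD11b, was not absent from the CD11b- sort. It had 13.5, 18.0, 17.3, 22.5 and 17.8 CPM in CD11b- AMs, compared with 0.399 to 3.50 CPM in CRE- AMs and 213 to 253 CPM in CD11b+ AMs, and 147 to 201 CPM in Tim4+ KCs.

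The protein markers with which the study followed deletion are SiglecF and CD20 on KCs, and EpCam and CD101 on AMs. *Siglecf* (chromosome 7, 43351341 to 43359531), a sialic acid-binding lectin gene typical of AMs, was measured in both tissues, with 102 to 246 CPM (median 176) in Tim4+ KCs and 327, 407, 341, 390 and 391 CPM in CD11b- AMs. The groups did not overlap but lay only -1.11 ± 0.19 apart on the log2 scale (adjusted p = 0.000162), and the call was lost without Tim4+ KC replicate 2, where the difference was -0.97. CRE- KCs had 1.69 to 5.89 CPM of *Siglecf*. *Ms4a1* (chromosome 19, 11249675 to 11266241), the CD20 gene that B cells also express, was higher in Tim4+ KCs, at 64.7 to 119 CPM (median 77.7) against 12.9, 18.8, 25.5, 39.1 and 23.5 CPM, a log2 fold change of 1.79 ± 0.25. It was higher than in CRE- cells of the same tissue on both sides, by 3.99 in KCs (adjusted p = 6.0e-08) and by 2.89 in AMs (adjusted p = 1.3e-05), while the B cell marker sum was 50.6 to 92.7 CPM in CRE- KCs and 6.39 to 11.5 CPM in CRE- AMs, with medians of 62.1 and 6.49 CPM against 40.7 and 3.12 CPM in Tim4+ KCs and CD11b- AMs.

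*Epcam* and *Cd101* were almost confined to the AM side in these 11 libraries. *Epcam* (chromosome 17, 87635979 to 87651129), an epithelial adhesion molecule gene, had 113, 182, 224, 234 and 146 CPM in CD11b- AMs and at most 0.269 CPM in Tim4+ KCs, and 11.5 to 21.5 CPM in CRE- AMs. *Cd101* (chromosome 3, 100993529 to 101029556) had 130, 147, 212, 203 and 179 CPM in CD11b- AMs, at most 1.15 CPM in Tim4+ KCs and 23.1 to 27.2 CPM in CRE- AMs. No library of either CRE- group reached the CD11b- AM level of these 2 genes.

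**Figure D1:**
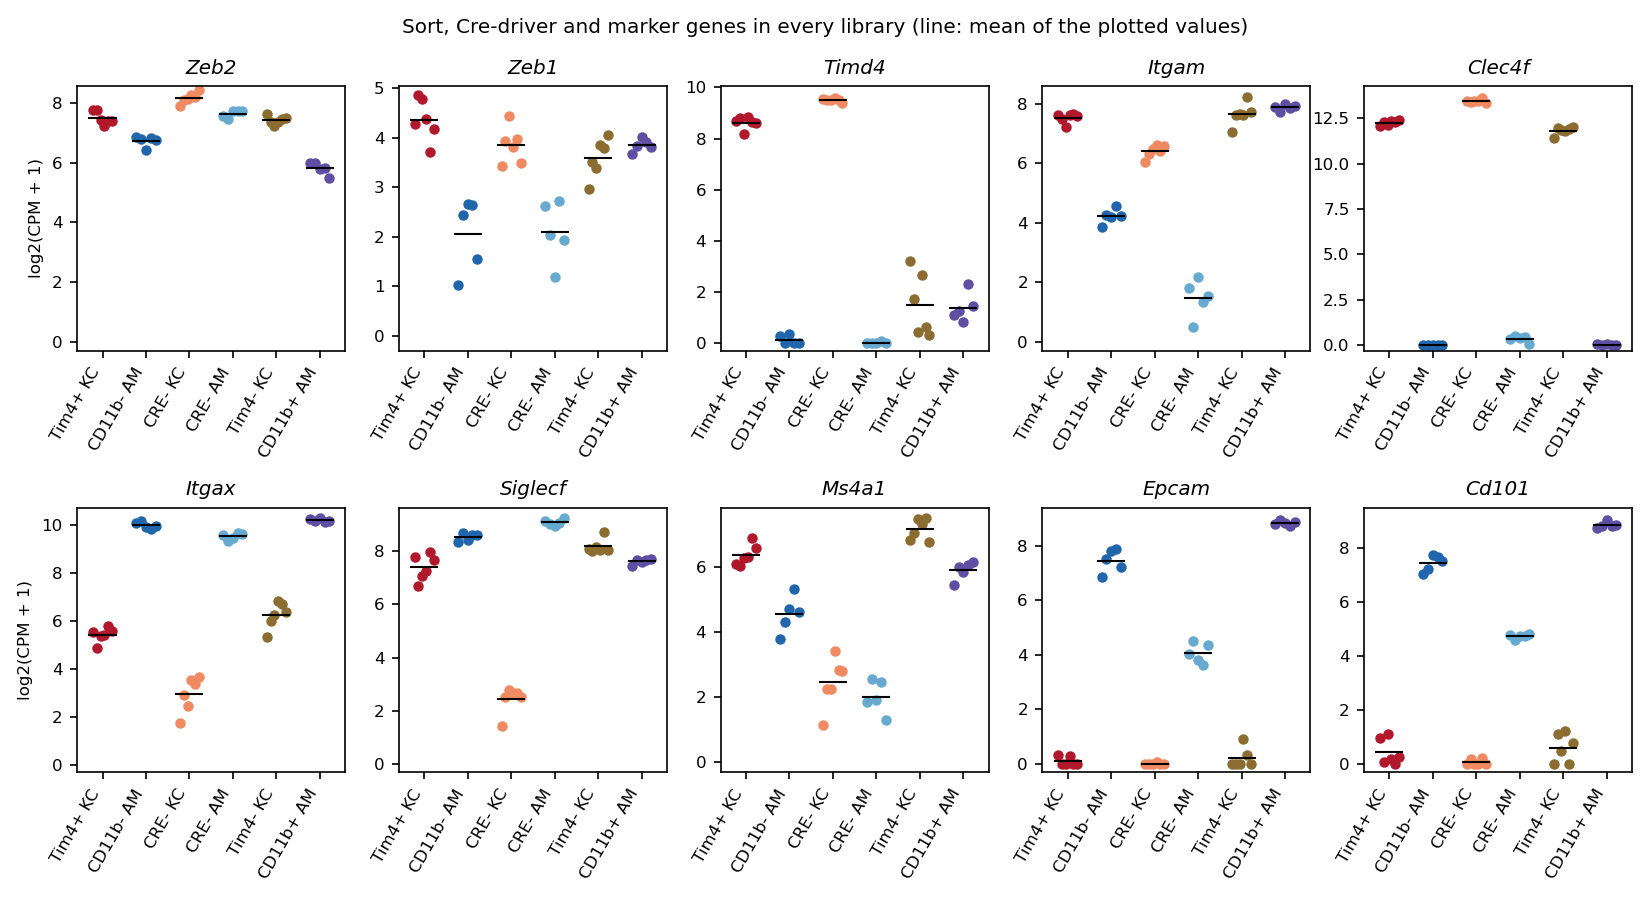
Levels of *Zeb2*, *Zeb1*, the sort and Cre-driver genes and the 4 marker genes as log2(CPM + 1) on the vertical axis, with 1 point per library, the 6 groups on the horizontal axis and a line at the mean of the plotted values. *Siglecf* and *Ms4a1* were measured in Tim4+ KCs and in CD11b- AMs, whereas *Epcam* and *Cd101* were near 0 in all KC groups.

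Genes of epithelial character stood on the AM side. Of 10 tested members of a list of ZEB factors and epithelial genes, 1 was higher in Tim4+ KCs (*Zeb1*), 8 were higher in CD11b- AMs and *Zeb2* was not called. Over all 12295 genes tested, 34.2% were called in either direction, 22.1% as higher in Tim4+ KCs and 12% as higher in CD11b- AMs. The list lay about as far apart in cells without Cre. In the fit with CRE- cells its median log2 fold change was -4.53, against -4.72 between CRE- KCs and CRE- AMs. Only *Krt8* and *Krt18* were called in the test of that difference. Against CRE- cells of the same tissue, 6 of the 10 were called higher in CD11b- AMs and 2 in Tim4+ KCs. The adhesion gene *Cdh1* (E-cadherin) had 314, 296, 225, 266 and 264 CPM in CD11b- AMs and 1.55 to 7.58 CPM (median 2.34) in Tim4+ KCs. The tight junction genes *Cldn1* (91.0 to 222 CPM against at most 2.78 CPM) and *Ocln* (24.7 to 43.5 CPM against 1.29 to 1.996 CPM) and the keratin gene *Krt8* (41.1 to 85.0 CPM against 1.02 to 6.85 CPM) also did not overlap. The other keratin gene of the list, *Krt18*, overlapped between the groups and lost its call without Tim4+ KC replicates 5 and 6 (log2 fold change -1.35, adjusted p = 0.0546). *Vim*, the mesenchymal filament gene that usually runs opposite to epithelial genes, was likewise higher in CD11b- AMs, at 2329 to 2554 CPM against 69.6 to 165 CPM.

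ZEB proteins are known to bind the sequence CACCTG, whose reverse complement is CAGGTG, so the 300-base promoter windows (250 bases before and 50 after the start site, RefSeq, GRCm38.p6) were searched for either form, which is a single motif read on both strands. Of 27025 promoters in the table, 20.03% held it. The list of ZEB factors and epithelial genes had 8 members with a promoter entry and 4 with the motif (*Epcam*, *Krt18* and *Ocln* among them), the KC identity list 17 and 1 (*Kcna2*), and the AM identity list 16 and 1 (*Krt79*). Among the named genes with a promoter entry, it was found in 10 of 56 that were higher in Tim4+ KCs, 14 of 63 that were higher in CD11b- AMs and 2 of 18 that were not called. The windows around the motif, in capitals, are shown for 3 keratin and adhesion genes that were higher in CD11b- AMs, each read 5′ to 3′ on the strand of its gene.
Epcam, chr17:87635780-87635809, plus strand: gccagtagggccCACCTGctggaggaccgg
Epcam, chr17:87635948-87635977, plus strand: acccataaaaccCAGGTGtggaggagaagc
Krt18, chr15:102027990-102028019, plus strand: aggggctaacacCACCTGctatcctttgtg
Krt79, chr15:101940334-101940363, minus strand: gcccctccctctCACCTGtggtaatcacag
The motif began 187 and 19 bases before the start site of *Epcam*, 214 before that of *Krt18* and 27 before that of *Krt79*. A match describes the letters only, and binding was not measured in these samples.

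Across the transcriptome, 2719 genes were higher in Tim4+ KCs and 1480 in CD11b- AMs (edgeR's quasi-likelihood test, adjusted p below 0.05 and absolute log2 fold change above 1). The KC side held more genes that were large in difference but low in level. The log2 fold change exceeded 5 for 970 genes higher in Tim4+ KCs and for 266 higher in CD11b- AMs, and 342 and 73 of the called genes had no count in any library of the other group. Among genes with a mean of at least 50 CPM in the higher group, the sides were nearly even, with 718 higher in Tim4+ KCs and 694 in CD11b- AMs. The groups did not overlap for 6105 of the 12295 genes tested (49.7%), of which 3832 were also called.

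The largest fitted differences in favour of Tim4+ KCs, among genes with at least 50 CPM, included *Clec4f* and *Vsig4*, and their order is not determined where a gene has few or no counts in CD11b- AMs. *Vsig4*, which encodes a complement receptor of resident macrophages, had 1904 to 2650 CPM (median 2368) and no count in CD11b- AMs, at least 15801-fold higher. *Tlr12* and *Tlr1*, which encode Toll-like receptors, also had no count in CD11b- AMs and were at least 986-fold and 629-fold higher, and so had *Gbp2b*, which encodes an interferon-inducible GTPase (at least 955-fold), and *Slc45a3* (at least 1015-fold). The complement component gene *C6* had 538 to 809 CPM against at most 0.154 CPM. *Dmpk*, the myotonic dystrophy kinase gene, and *Asb2*, a ubiquitin ligase subunit gene, had 2 counts and 1 count in all CD11b- AM libraries together, with ratios of 26174 (95% exact counting interval 7245 to 2.16e+05) and 29848 (5357 to 1.18e+06). The list also held *Clec4g* (249 to 705 CPM, at least 2745-fold) and *Alb* (at least 796-fold), which are markers of liver endothelium and hepatocytes, and *Bmp2* (85.5 to 385 CPM, at least 1120-fold), a growth factor gene. *Clec4g* and *Bmp2* varied more among the 6 Tim4+ KC libraries than *Vsig4* or *C6* did, beside an endothelial marker sum that ranged from 1010 to 2939 CPM.

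In favour of CD11b- AMs, the largest differences included *Chil3*, the chitinase-like gene for Ym1, with 20100 to 28708 CPM against at most 1.82 CPM in Tim4+ KCs. *Chil3* has close paralogs, so its reads may be divided among them. The keratin gene *Krt79* (chromosome 15, 101929332 to 101940324) had 246 to 317 CPM and no count in Tim4+ KCs, at least 1888-fold higher. *Plet1*, which encodes a surface protein of epithelial progenitors, had 1199 to 1397 CPM against at most 0.143 CPM (log2 fold change -14.35 ± 0.22), and *Car4*, a carbonic anhydrase gene, had 487 to 1183 CPM against at most 0.269 CPM. *Cidec*, a gene for lipid droplet fusion, had 300 to 405 CPM and 2 counts in all Tim4+ KC libraries together, a ratio of 22406 (95% exact counting interval 6202 to 1.85e+05). *Cd177*, a neutrophil surface gene, had 114, 134, 217, 215 and 246 CPM and no count in Tim4+ KCs, at least 1258-fold higher, beside the neutrophil marker sums given above. The remaining genes of this set were *Vstm2a*, *Trim29*, *Slc9a4*, *B3gnt7*, *Mfsd7c* and the zinc transporter gene *Slc39a2*, with group means from 55.0 CPM (*Trim29*) to 397 CPM (*Slc39a2*) in CD11b- AMs and at most 0.238 CPM in any Tim4+ KC library.

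**Figure D2:**
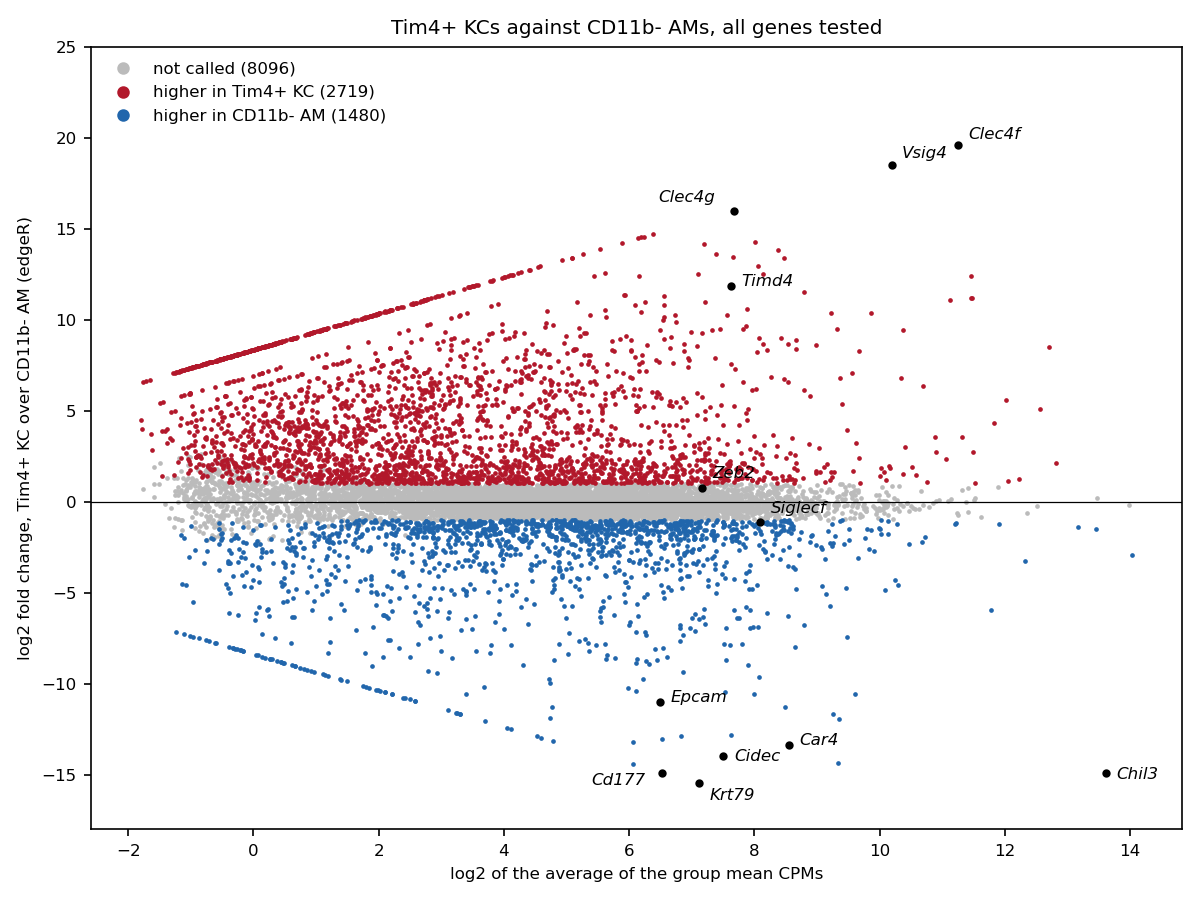
The log2 fold change of Tim4+ KCs over CD11b- AMs (vertical axis) against the log2 of the average of the group mean CPMs (horizontal axis), with 1 point for each of the 12295 genes tested. The 2719 genes higher in Tim4+ KCs are red, the 1480 higher in CD11b- AMs blue and 8096 not called grey, and the straight diagonal edges are genes without a count in 1 group, whose fitted values are not sizes.

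The tissue identity genes were compared first as lists. Of 20 KC identity genes, 19 were higher in Tim4+ KCs (median log2 fold change 9.79, against 0.05 over all genes tested), and of 21 AM identity genes, 20 were higher in CD11b- AMs (median -8.70, or -8.55 with genes at 0 set to their bounds). The lists come from genes the study described as particular to these populations. They were chosen with earlier results of these data known, so their direction is not independent evidence. *Slc40a1*, which encodes the iron exporter ferroportin, had 11058 to 17158 CPM in Tim4+ KCs and 37.1, 34.1, 38.0, 22.9 and 49.6 CPM in CD11b- AMs. *Cd5l*, a gene for a secreted scavenger receptor family protein, had 4664 to 6410 CPM against 0 to 2.27 CPM. *Folr2* (433 to 845 CPM against at most 0.229 CPM), *Cd38* (988 to 1360 CPM against at most 2.55 CPM) and *Cd163*, the haptoglobin-hemoglobin receptor gene (161 to 356 CPM against 0 to 3.54 CPM), were also separate in every library. The exception was the X-linked gene *Xlr*, with 31.1 to 45.7 CPM in Tim4+ KCs and 48.5 to 65.5 CPM in CD11b- AMs. On the AM side, *Krt19* (1185 to 1464 CPM against at most 0.742 CPM), *Atp6v0d2*, a proton pump subunit gene (1473 to 1697 CPM against 0.430 to 1.80 CPM), and *Ctsk*, the cathepsin K gene (926 to 1503 CPM against at most 0.916 CPM), were nearly absent from Tim4+ KCs. *Mrc1*, the mannose receptor gene, was the member not called, with 694 to 1293 CPM in Tim4+ KCs and 548 to 669 CPM in CD11b- AMs. *Fabp1* was called (log2 fold change -1.69 ± 0.52, adjusted p = 0.012) although its groups overlapped, at 9.89 to 107 CPM and 105 to 155 CPM.

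**Figure D3:**
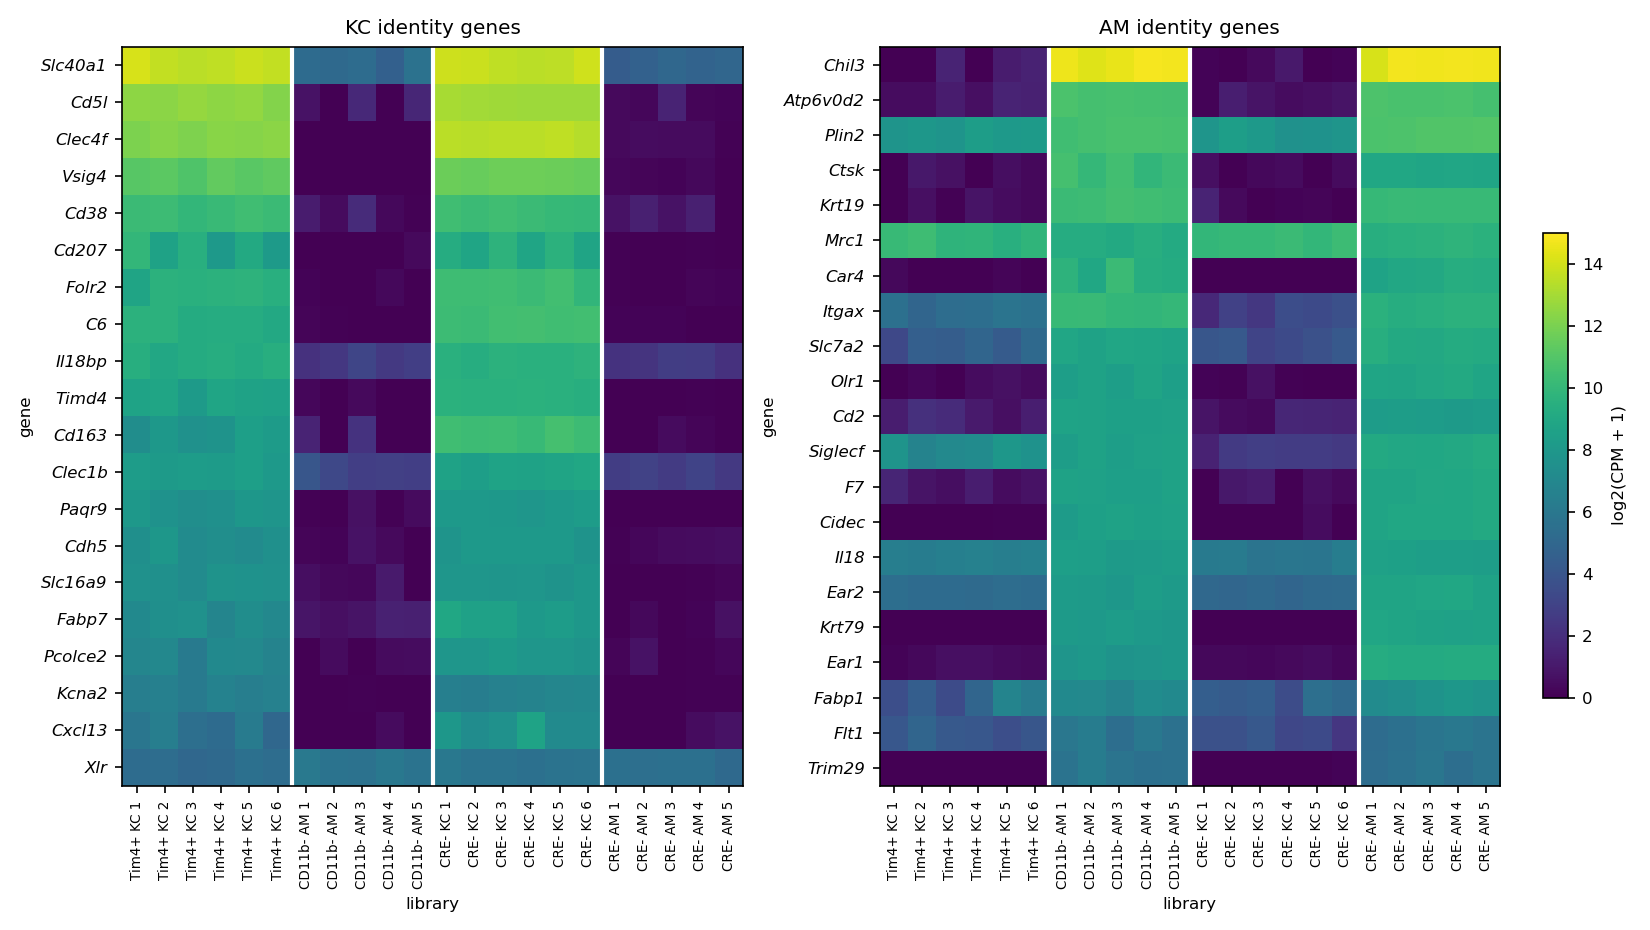
Heat map of log2(CPM + 1), from 0 (dark) to above 14 (yellow), for 20 KC identity genes (left) and 21 AM identity genes (right), with genes in rows and the libraries of Tim4+ KCs, CD11b- AMs, CRE- KCs and CRE- AMs in columns. Tim4+ KCs resemble CRE- KCs in most rows, with lower *Clec4f*, *Cd163* and *Timd4* and higher *Siglecf*, and *Xlr* and *Mrc1* differ little between the columns.

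The transcription factors of each tissue followed the same division with exceptions. Of 7 KC regulators, 5 were higher in Tim4+ KCs and none in CD11b- AMs. *Id3*, an inhibitor of basic helix-loop-helix factors, had 632 to 855 CPM (median 685) in Tim4+ KCs and 47.5, 60.1, 73.1, 48.2 and 82.3 CPM in CD11b- AMs. *Nr1h3*, the gene for the oxysterol receptor LXRα, was counted in both, at 548 to 834 CPM (median 699) and 118, 107, 128, 107 and 104 CPM (log2 fold change 2.58 ± 0.11, adjusted p = 1.71e-10). *Spic*, which is needed for red pulp and other iron-recycling macrophages, had 107 to 202 CPM against 0.125 to 1.98 CPM, and *Irf7* and *Smad6* were higher by 6.56 and 3.80 on the log2 scale. *Id1* (log2 fold change -0.33, adjusted p = 0.14) and *Rxra* (0.54, adjusted p = 7.4e-06) were not called. Of 7 AM regulators, 5 were higher in CD11b- AMs. *Pparg*, the central regulator of AM lipid handling, had 236, 241, 224, 261 and 230 CPM there and 31.4 to 45.2 CPM (median 41.5) in Tim4+ KCs. *Egr2*, a zinc-finger factor gene, had 364 to 558 CPM in CD11b- AMs and 2.44 to 30.0 CPM in Tim4+ KCs, and *Cebpb*, *Bhlhe40* and *Klf4* had log2 fold changes of -2.22, -2.76 and -4.23. *Bhlhe41* did not reach the cut-off (-0.93, adjusted p = 0.047), and *Bach2* was higher in Tim4+ KCs, from a low level (3.92 to 7.13 CPM against 0.344 to 0.793 CPM).

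Genes shared by macrophages were mixed, with 7 of 20 higher in Tim4+ KCs, 3 higher in CD11b- AMs and 10 not called (median log2 fold change 0.21). *Spi1*, the gene for the lineage factor PU.1, had 549 to 641 CPM and 603 to 726 CPM, and *Cd68* 1063 to 1196 CPM and 976 to 1085 CPM, so that both overlapped. *Maf*, a transcription factor gene of macrophages, had 85.8 to 126 CPM in Tim4+ KCs against 0.115 to 0.283 CPM in CD11b- AMs. *Csf1r*, the receptor gene for CSF1 and IL-34, had 6260 to 7498 CPM against 324, 350, 342, 305 and 356 CPM. *Lyz2* (lysozyme), *Lgals3* (galectin-3) and *Cd14* were higher in CD11b- AMs, with log2 fold changes of -2.95, -1.96 and -1.12, and *Cd14* fell just under the cut-off without Tim4+ KC replicates 5 and 6.

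Interferon-stimulated genes and MHC class II genes were higher in Tim4+ KCs as groups. All 19 interferon-stimulated genes were called in this direction (median log2 fold change 4.91). *Irf7*, which amplifies type I interferon responses, had 404 to 892 CPM (median 774) in Tim4+ KCs and 8.16, 7.68, 7.22, 7.85 and 7.28 CPM in CD11b- AMs. *Oas3*, which encodes an antiviral enzyme, had 174 to 322 CPM against 1.84 to 8.26 CPM. Of 10 MHC class II genes, 7 were higher in Tim4+ KCs and 3 were not called (median log2 fold change 5.30). *H2-Ab1*, a class II β chain gene, had 1892 to 4500 CPM (median 3390) in Tim4+ KCs and 43.7, 17.3, 33.3, 41.5 and 61.8 CPM in CD11b- AMs. *Cd74*, the invariant chain gene, had 5560 to 9744 CPM against 214, 115, 170, 154 and 183 CPM, and *Ciita*, the master regulator of class II, 31.3 to 51.9 CPM against 0.459 to 1.98 CPM. The accessory genes *H2-DMa*, *H2-DMb2* and *H2-Oa* had log2 fold changes of 0.86, 0.19 and 0.78. B cells and dendritic cells also express class II genes, and their marker sums were higher in Tim4+ KCs too (24.2 to 53.8 CPM against 2.41 to 4.99 CPM for B cells and 21.8 to 41.0 CPM against 3.68 to 5.50 CPM for dendritic cells).

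Complement genes were mostly on the KC side, with 13 of 17 higher in Tim4+ KCs and 2 higher in CD11b- AMs (median log2 fold change 5.28). The 3 chains of C1q, the recognition molecule of the classical pathway, were alike. *C1qa* had 3942 to 4882 CPM (median 4515) in Tim4+ KCs and 2.21, 0.167, 5.52, 0.229 and 1.73 CPM in CD11b- AMs, and *C1qb* and *C1qc* had log2 fold changes of 11.18 ± 0.49 and 11.22 ± 0.37. *C4b* (395 to 669 CPM against 0.462 to 3.63 CPM) and properdin, *Cfp* (2798 to 3975 CPM against 242 to 343 CPM), were separate as well. The exceptions were *C5ar1*, the receptor gene for the anaphylatoxin C5a (132 to 266 CPM in Tim4+ KCs, 596 to 858 CPM in CD11b- AMs), and *Itgax*, while *C3* and *Cfb* were not called.

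For heme and iron handling, 11 of 17 genes were higher in Tim4+ KCs and 1 in CD11b- AMs (median log2 fold change 1.503). Besides *Slc40a1* and *Cd163*, the transporter gene *Slc11a1* had 1208 to 1395 CPM against 15.9 to 49.8 CPM. *Hmox1*, the gene for heme oxygenase-1, was less far apart, with 1175 to 2207 CPM against 438 to 558 CPM (log2 fold change 1.87 ± 0.15). The exception was *Fth1*, the ferritin heavy chain gene, at 4721 to 6767 CPM in Tim4+ KCs and 15850 to 17730 CPM in CD11b- AMs, whereas the light chain gene *Ftl1* overlapped (log2 fold change -0.20). *Hpx*, a gene of hepatocytes, had 18.0 to 51.8 CPM in Tim4+ KCs and no count in CD11b- AMs, beside the hepatocyte markers named above. Of 18 phagocytic and scavenger receptor genes, 9 were higher in Tim4+ KCs and 1, the oxidized LDL receptor gene *Olr1*, in CD11b- AMs. *Msr1* (538 to 656 CPM against 50.9 to 88.5 CPM) and the αv integrin gene *Itgav* (251 to 365 CPM against 70.1 to 85.4 CPM) were among the 9, and so were *Stab1* and *Stab2*, which liver endothelium also expresses. The efferocytosis receptor genes *Axl* (2070 to 2769 CPM and 2013 to 2293 CPM) and *Mertk* (log2 fold change 0.78) were not called.

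Lipid metabolism was on the AM side. Of 14 genes of PPARγ targets and lipid droplets, 10 were higher in CD11b- AMs and none in Tim4+ KCs (median log2 fold change -2.97). *Plin2*, which coats lipid droplets, had 1353, 1536, 1633, 1658 and 1587 CPM in CD11b- AMs and 215 to 322 CPM (median 262) in Tim4+ KCs. *Fabp5*, a fatty acid-binding protein gene, had 418 to 470 CPM against 22.04 to 40.3 CPM, and *Angptl4*, a lipase inhibitor gene, 125 to 183 CPM against 1.84 to 7.79 CPM. *Fabp4*, *Cd36*, *Lipa* and *Gpd1* were not called. Of 17 cholesterol synthesis genes, 10 were higher in CD11b- AMs and none in Tim4+ KCs (median -1.20). The steps were smaller than those of the lipid droplet genes, as for *Hmgcs1* (34.2 to 45.0 CPM in Tim4+ KCs, 76.7 to 106 CPM in CD11b- AMs) and *Sqle*, the squalene epoxidase gene (2.32 to 5.55 CPM and 18.4 to 38.9 CPM). Of 17 fatty acid oxidation genes, 9 were higher in CD11b- AMs and none in Tim4+ KCs (median -1.06), among them *Cpt1a*, which controls the entry of fatty acids into mitochondria (155 to 206 CPM and 353 to 451 CPM). For this list the fitted values of the 9 called genes, from -1.31 to -1.06, lay just past the cut-off. LXR targets were divided, with 6 of 12 higher in Tim4+ KCs and 2 in CD11b- AMs. *Apoe* had 9105 to 15701 CPM (median 11388) in Tim4+ KCs and 279, 300, 321, 392 and 402 CPM in CD11b- AMs, whereas the cholesterol exporter gene *Abcg1* had 204 to 258 CPM and 1121 to 1174 CPM, and its relative *Abca1* 303 to 545 CPM and 148 to 199 CPM.

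Among signalling genes, the receptors for macrophage growth factors differed by tissue. *Csf1r*, *Kit*, *Il3ra* and *Csf1* were higher in Tim4+ KCs, and *Csf2rb*, the common β chain gene of the GM-CSF receptor, in CD11b- AMs (171 to 220 CPM in Tim4+ KCs, 462 to 520 CPM in CD11b- AMs). Its partner *Csf2ra* did not overlap but had a log2 fold change of -0.91, and 4 of the 9 genes tested were not called. Of 22 TGF-β and BMP pathway genes, 6 were higher in Tim4+ KCs, 3 in CD11b- AMs and 13 were not called (median 0.23). The share called, 40.9%, was not far from the 34.2% of all genes tested, so the values below describe single members. The inhibitory *Smad6* (62.0 to 108 CPM against 3.69 to 7.93 CPM) and *Smad7* (29.4 to 55.1 CPM against 3.61 to 7.70 CPM) were on the KC side, as were *Smad3*, *Eng*, *Acvrl1* and *Id3*. *Inhba*, the activin A subunit gene, was on the AM side (at most 0.376 CPM against 11.8 to 27.4 CPM). The receptor genes *Tgfbr1* and *Tgfbr2* were lower in Tim4+ KCs by less than the cut-off, with log2 fold changes of -0.73 and -0.91.

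Of 12 Notch pathway genes, 8 were higher in Tim4+ KCs and 1 in CD11b- AMs (median 1.62). The target gene *Hes1* had 70.3 to 83.5 CPM in Tim4+ KCs and at most 0.644 CPM in CD11b- AMs. The ligand gene *Dll4* had 11.9 to 39.5 CPM against at most 0.743 CPM, while the ligand gene *Jag1* was on the other side, at 0.0951 to 2.52 CPM against 13.5 to 17.9 CPM. *Notch4*, which endothelium is known to express, had 5.14 to 28.4 CPM against 0 to 1.32 CPM. *Notch1* was at the cut-off, with a log2 fold change of 1.01 ± 0.17, and its call was lost in 7 alternatives, with values from 0.89 to 0.99.

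Chemokine and receptor genes differed in both directions, with 10 of 23 higher in Tim4+ KCs and 9 in CD11b- AMs (median 0.41), a share called of 82.6%. *Ccl24*, an eosinophil chemoattractant gene, had 194 to 540 CPM (median 441) in Tim4+ KCs and 3 counts in all CD11b- AM libraries together, a ratio of 13933 (95% exact counting interval 4768 to 67566). The receptor gene *Ccr3* had 113 to 616 CPM against 0.205, 0, 2.12, 0 and 0 CPM. The neutrophil chemoattractant genes were on the AM side, with 160 to 273 CPM of *Cxcl2* and 23.5 to 40.6 CPM of *Cxcl1* against at most 2.28 and 1.08 CPM. *Ccl6* had 756 to 1208 CPM in Tim4+ KCs and 8145 to 10270 CPM in CD11b- AMs, and *Cxcr2*, the receptor of the neutrophil chemokines and itself a neutrophil marker, 0.679 to 1.45 CPM and 88.9 to 235 CPM. Pattern recognition receptor genes were evenly divided, with 5 of 17 on each side. *Tlr1* and *Tlr3* were higher in Tim4+ KCs, *Tlr2* (230 to 289 CPM against 1329 to 1930 CPM) and *Tlr5* in CD11b- AMs, and *Tlr4* overlapped (226 to 351 CPM and 245 to 330 CPM).

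Cell cycle genes were called in 1 direction only, with 7 of 20 higher in CD11b- AMs (median -0.85). *Ccnb2* had 16.5 to 25.1 CPM in Tim4+ KCs and 42.2 to 73.4 CPM in CD11b- AMs, whereas the proliferation marker *Mki67* had 5.05 to 21.2 CPM and 5.43 to 22.7 CPM (log2 fold change 0.00 ± 0.35). Of the 7 called genes, 5 overlapped between the groups (*Ccnb1*, *Ccna2*, *Birc5*, *Rrm2* and *Cdc20*), and *Ccna2* fell just under the cut-off without Tim4+ KC replicates 5 and 6.

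**Figure D4:**
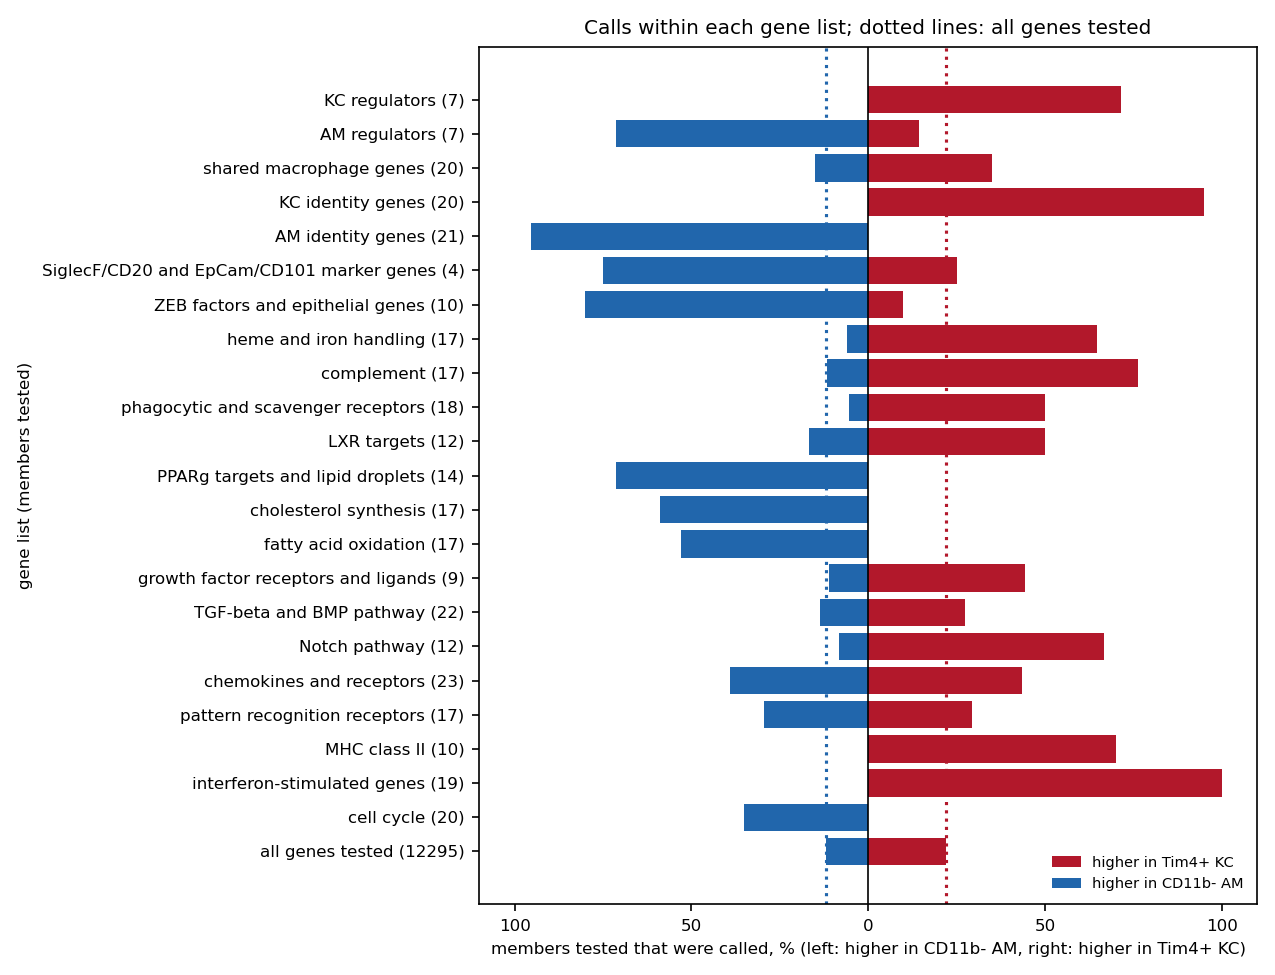
Percentage of the tested members of each gene list called higher in Tim4+ KCs (red, to the right) or in CD11b- AMs (blue, to the left), with the number tested in parentheses and dotted lines at the 22.1% and 12% of all genes tested. Interferon-stimulated genes reach 100% on the KC side, and lipid droplet, cholesterol and fatty acid oxidation genes have bars on the AM side only.

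To see how far the KC to AM difference was that of CRE- cells, the difference between Tim4+ KCs and CD11b- AMs was set against that between CRE- KCs and CRE- AMs, which share no sample. Across 12940 genes, the log2 fold changes correlated with Pearson's r = 0.916 and Spearman's rho = 0.891, as a description over genes that share tissue and libraries and are not independent. The pairs called 4539 and 4482 genes, of which 3773 were called in the same direction in both (83.1% and 84.2%) and 18 in opposite directions. The 2 differences were themselves compared in a fit of the 4 groups, and 641 genes were called (4.95% of those tested, 2.92% as higher in the Cre-bearing pair and 2.03% as lower). In 294 of them the tissues lay closer together in the Cre-bearing pair, in 210 farther apart, and in 137 the direction was opposite. The estimated change from CRE- cells was larger on the AM side in 471 genes and on the KC side in 170.

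On the KC side, several AM-type genes were raised in Tim4+ KCs. *Siglecf* had the clearest value, a difference of the tissue differences of 5.72 ± 0.31 (adjusted p = 5.3e-11). It was 5.20 higher in Tim4+ than in CRE- KCs on the log2 scale, and -0.53 (adjusted p = 0.076) in CD11b- against CRE- AMs. *Trem1*, which encodes an amplifier of inflammatory signals, had 9.66 to 16.1 CPM in Tim4+ KCs and at most 0.866 CPM in CRE- KCs, beside 129 to 217 CPM and 125 to 143 CPM in the AM groups. *Tmem154* (18.1 to 49.8 CPM and 0.283 to 1.18 CPM in the KC groups) and *Spint1*, a protease inhibitor gene of epithelia (8.39 to 30.6 CPM and at most 0.643 CPM), had the same pattern, with at least 243 CPM of *Tmem154* and 94.0 CPM of *Spint1* in every library of the 2 AM groups. *Itgax* was 2.47 higher in Tim4+ than in CRE- KCs on the log2 scale (adjusted p = 1.5e-07), with a difference of the differences of 1.98. *Pglyrp1*, a peptidoglycan-binding protein gene, was raised without being an AM gene, at 12.04 to 43.8 CPM in Tim4+ KCs and at most 1.20 CPM in the other 3 groups.

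On the AM side, several KC-type genes were raised in CD11b- AMs. *Apoe* was 2.997 higher in CD11b- than in CRE- AMs on the log2 scale (adjusted p = 6.7e-09), from 24.97 to 61.2 CPM in CRE- AMs, and -0.01 in Tim4+ against CRE- KCs, a difference of the differences of -3.01 ± 0.31. *Id3* (1.84 on the AM side, 0.20 on the KC side) and the chemokine gene *Cxcl16* (2.87 and -0.31) were of the same kind. *Igf2r*, the cation-independent mannose 6-phosphate receptor gene, had 0.752 to 11.6 CPM in CD11b- AMs and at most 0.046 CPM in CRE- AMs, beside 16.6 to 44.2 CPM in Tim4+ KCs and 24.99 to 43.8 CPM in CRE- KCs. *Krt8* was measured at 1.02 to 6.85 CPM and 1.32 to 5.49 CPM in the KC groups, but at 41.1 to 85.0 CPM in CD11b- AMs against at most 0.387 CPM in CRE- AMs, so that the direction of its tissue difference was opposite (a difference of -8.13 ± 0.81, adjusted p = 3.5e-07). *S100a9* (265, 328, 639, 811 and 503 CPM in CD11b- AMs, at most 0.250 CPM in CRE- AMs), *S100a8*, *Lcn2* and *Cd177* had differences in the same direction. They were raised in CD11b- AMs without being KC-type genes. These 4 are genes of neutrophil granules, cytosol or surface. The neutrophil marker sum, which includes *Csf3r*, was 37.1 to 61.6 CPM in CRE- AMs, 815 to 2403 CPM in CD11b- AMs and 7391 to 9243 CPM in CD11b+ AMs. The calls of *Cd177* and *Lcn2* were lost without CRE- KC replicate 4 (differences of -12.38 and -4.59, adjusted p = 1 and 0.297).

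Some differences of the differences rest on a few reads in the low group and carry no size. *Clec4f* was lower in Tim4+ than in CRE- KCs, with a log2 fold change of -1.24 (adjusted p = 6.5e-09), and its call in this comparison comes from CRE- AMs with 0.0515 to 0.399 CPM against 0 in CD11b- AMs. *Timd4*, *Lama4*, *Ffar4*, *Tmem26* and *Itga9* are likewise at or near 0 in 1 tissue of both pairs (at most 1.13 CPM), *Egfem1* has at most 1.21 CPM in KCs, and *S100a9*, *Lcn2*, *Igf2r* and *Krt8* have at most 0.414 CPM in CRE- AMs. The call of *Timd4* was lost without KC replicates 5 and 6 (-3.65, adjusted p = 0.0821). For the other 3 marker genes, the difference of the differences was not called, at 1.10 for *Ms4a1* (adjusted p = 0.20), 0.14 for *Cd101* (adjusted p = 0.95) and -0.89 for *Epcam* (adjusted p = 1).

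The lists were also set side by side, a gene being closer together where its absolute log2 fold change was smaller in the Cre-bearing pair, which held for 49.9% of the 12940 genes. The median log2 fold change of the 20 KC identity genes was 9.80 in the Cre-bearing pair and 12.18 in the CRE- pair, with 16 of 20 closer together in the former. Of these, 5 were called as lower in the Cre-bearing pair and 2 as higher (*Clec4f* and *Vsig4*). Their summed level was only 99.98 to 126.6 CPM in CD11b- AMs and 75.1 to 90.73 CPM in CRE- AMs, and fitted values that rest on few AM reads carry no firm size. In KCs, where reads were plentiful, the sum was 29110 to 35230 CPM in Tim4+ and 41920 to 47400 CPM in CRE- cells. Against CRE- cells of the same tissue, 6 of the 20 were called lower and 0 higher in Tim4+ KCs. In CD11b- AMs, 4 were called higher and 2 lower. For the 21 AM identity genes the medians were -8.70 and -9.86, with 16 of 21 closer and 4 called as higher. For 18 cholesterol synthesis genes the medians were -1.09 and -2.09, 17 of 18 were closer, and 6 were called, among them *Idi1*, *Fdft1*, *Sqle* and *Cyp51*. For 17 complement genes the medians were 5.29 and 7.37, 14 of 17 were closer, 7 were called as lower in the Cre-bearing pair and 3 as higher (*Vsig4*, *Cd55* and *Itgax*). All 3 C1q chain genes were among the 7, *C1qa* being 2.09 higher in CD11b- than in CRE- AMs on the log2 scale (adjusted p = 0.025) at 0.167 to 5.52 CPM. Of the LXR targets, *Apoe*, *Apoc1*, *Abca1* and *Nr1h3* were called as closer together. Other lists lay farther apart in the Cre-bearing pair, with medians of 5.31 and 3.69 for 10 MHC class II genes (2 closer) and -0.84 and -0.41 for 20 cell cycle genes (5 closer, *Ccnb2* called). The only class II gene called, *H2-Oa*, was 1 of the 2 that were closer, with values of 0.79 and -1.30 in opposite directions. For 19 phagocytic and scavenger receptor genes the medians were 1.39 and 0.80, but 11 were closer. The 4 called among them (*Timd4*, *Stab1*, *Msr1* and *Cd163*) were all lower in the Cre-bearing pair. No fatty acid oxidation gene was called in this comparison by edgeR (6 of 17 closer).

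**Figure D5:**
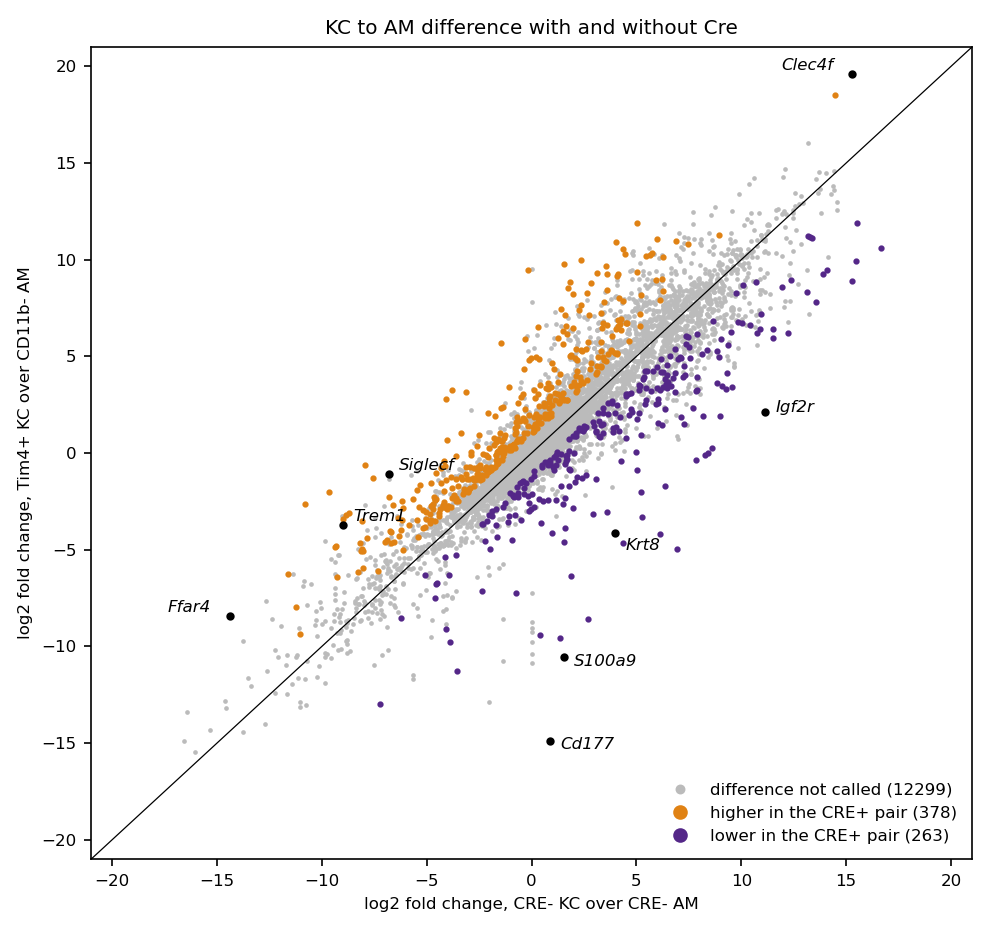
The log2 fold change of Tim4+ KCs over CD11b- AMs (vertical axis) against that of CRE- KCs over CRE- AMs (horizontal axis), with 1 point for each of 12940 genes and a line of equal values. The 378 genes whose tissue difference was higher in the Cre-bearing pair are orange, the 263 with a lower one purple and the 12299 others grey, and *Cd177*, *S100a9* and *Krt8* lie below 0 on the vertical axis and above 0 on the horizontal axis.

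The other sorted fraction of the same Cre strains, Tim4- KCs and CD11b+ AMs, gave a different tissue difference for more genes. Across 12940 genes the log2 fold changes of the 2 pairs correlated with r = 0.880, and 1466 genes were called in the test of the difference (11.3%, of which 8.41% were higher and 2.92% lower in the Tim4+ and CD11b- pair). This fit left the replicate numbers out, so its standard errors and p-values ignore a pairing of the fractions. With a replicate block 1548 genes were called, 1371 of them also called here in the same direction. Since the fractions were sorted on Tim4 and CD11b, *Timd4* and *Itgam* (differences of 11.59 and 3.70) were gated genes and are no finding. *Siglecf* had a log2 fold change of -0.79 in Tim4+ against Tim4- KCs and of 0.75 in CD11b- against CD11b+ AMs, a difference of -1.53 ± 0.24 (adjusted p = 7.0e-05), and the tissue order was reversed, with 254 to 424 CPM in Tim4- KCs and 172 to 210 CPM in CD11b+ AMs. *Zeb1* had a log2 fold change of -2.08 in CD11b- against CD11b+ AMs, which had 11.7 to 15.1 CPM, a difference of 2.86 ± 0.43 (adjusted p = 3.4e-05).

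The genes with the largest values in this comparison included several that differed between the AM fractions. Over the 1466 genes, the estimated difference between fractions was larger among AMs in 1074 and among KCs in 392. *Clec4a2* and *Clec4b1*, C-type lectin genes, had 65.4 to 75.5 CPM and 20.3 to 26.1 CPM in CD11b- AMs but 3.77 to 7.46 CPM and 0.700 to 2.12 CPM in CD11b+ AMs, with differences of -3.99 ± 0.19 and -4.62 ± 0.30. *Tmsb10*, a thymosin gene, had 185 to 235 CPM in CD11b- AMs and 24.95 to 30.1 CPM in CD11b+ AMs, and *Thrb*, a thyroid hormone receptor gene, 0.897 to 2.21 CPM and at most 0.138 CPM. *F13a1*, a coagulation factor gene that marks monocytes, was at most 0.745 CPM in CD11b- AMs and 16.8 to 63.3 CPM in CD11b+ AMs, and *Mmp9*, a neutrophil marker, at most 0.0513 CPM and 7.502 to 18.2 CPM. Between the KC fractions, *Cd209f*, another lectin gene, had 49.1 to 322 CPM in Tim4+ KCs and 0.658 to 28.1 CPM in Tim4- KCs, and *Bmp2* 85.5 to 385 CPM and 28.6 to 57.7 CPM, beside endothelial marker sums of 1010 to 2939 CPM and 365 to 497 CPM. *Bmp2* also differed between the AM fractions. Its fitted log2 fold change was larger there (-7.90, with no count in CD11b- AMs and therefore no firm size) than between the KC fractions (2.16). *Alox15*, *Vsig4*, *Adamdec1*, *Krt79*, *Ffar2* and *Cdh17* had fewer than 5 CPM in every library of at least 1 tissue, so that their fitted differences carry no size, and the call of *Krt79* was lost with a replicate block (adjusted p = 0.0625), while *Prune2* had a difference of -3.58 ± 0.65.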

How the data were processed

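RNA of 25000 FACS-sorted macrophages per sample was sequenced on a NextSeq. The authors trimmed the reads with Trimmomatic (bases below quality 20, reads under 35 bases discarded), aligned them with TopHat2 and counted them per gene with HTSeq-count. They deposited 1 table of raw counts per gene symbol and sample, and replicates were not pooled. Per the labels' processing notes, the build was mm10 and the versions were FastQC 0.11.4, Trimmomatic 0.35, TopHat2 2.1.0 and SAMtools 0.1.18. The annotation and the strand setting are not given in the sources used here, so overlapping and antisense genes may share reads. Reads of several genes in close families, such as *Chil3*, *Ear1* and *Ear2*, may be divided among copies.

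The 5 tally rows of each table (24421 gene rows) entered neither library sizes nor tests. The rows for reads on no gene came to 5.62 to 8.90% in Tim4+ KCs and 4.52 to 5.82% in CD11b- AMs, and those for ambiguous reads to 1.20 to 1.32% and 1.34 to 1.37%. The labels gave each sample's group and replicate number. No 2 libraries of a group agreed within sampling noise, and their log2 CPM values correlated with r from 0.967 to 0.988.

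Tests were run in R 4.3.3 with edgeR 4.0.16 (TMM factors, its filter on low counts, quasi-likelihood F test), with Benjamini-Hochberg adjustment over all genes tested. A gene was called if its adjusted p was below 0.05 and it differed by more than 1 on the log2 scale. Standard errors were approximated as the log2 fold change divided by the square root of F. The first comparison was fitted on the 11 samples of both groups, and each comparison of tissue differences on the 22 samples of its 4 groups. Printed CPM values were divided by the total count on genes alone. TMM factors entered the tests, and over all 33 libraries they were 1.019 to 1.064 in Tim4+ KCs, 0.9904 to 1.022 in CD11b- AMs, 1.005 to 1.048 in the CRE- and Tim4- groups, and 0.8693 to 0.9034 in CD11b+ AMs, whose CPM values would be higher by that factor's inverse with this scaling. A count of 0 was given a floor of 3 counts per library (0.147 CPM on average in Tim4+ KCs and 0.148 CPM in CD11b- AMs), and intervals and floors cover counting error only. The code was tested on simulated data with known changes.

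Named were the targeted, sort, Cre-driver and marker genes, the 12 genes in each direction with the largest fold change among called genes without overlap and with a mean of at least 50 CPM, in each list up to 4 called members per direction with the highest level and every member of lists of at most 12 genes, and for each comparison of tissue differences the 8 genes in each direction with the largest value and at least 20 CPM in a group. Members that were not called in the identity lists, and a few further members that show an exception or an overlap, were also named, the latter after their values were seen. The groups compared and the gene lists, some of which share members, were chosen with earlier results of these data known. The counts of calls, the gene lists and named genes of the first comparison, and 25 named genes in each comparison of tissue differences were recomputed with limma-voom, the study's own method (limma 3.58.1), with DESeq2 1.42.0, with RLE factors, without the filter, with a minimum of 10 counts per sample (5 and 10 of the 25 genes tested), without the fold cut-off, with all 33 samples in the fit, with a replicate block, without KC replicates 5 and 6, and without each replicate in turn. The other tissue differences and the list medians set beside the CRE- pair come from the reported fit alone.

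Same-numbered Tim4+ and Tim4- KC samples deviated together (r from 0.156 to 0.300), so by this check alone these numbers pair the samples. The reported fits did not use the pairing, which entered only the replicate block. Those of Tim4+ KCs and CD11b- AMs did not (0.0145 to 0.100).

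GENCODE M21 (GRCm38) gave the gene positions and matched 23376 of 24421 symbols and 184 of 185 named genes. Promoter sequences came from RefSeq (GRCm38.p6), with the first window listed for each symbol. A few genes and 1 promoter window are not reported here. Tables and figures were made in Python 3.11.15 with pandas 2.3.3, numpy 2.4.6, scipy 1.17.1 and matplotlib 3.10.9.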

Additional observations from a re-analysis of the deposited data

Results flagged for a closer look

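Among 312 gene and group combinations of 183 named genes, 21 held a library that lay apart from the rest of its group by Dixon's ratio (95% critical value, which chance passes in about 5% of groups). In Tim4+ KC replicate 4 these were *Ccr1* (41.84 CPM, others 4.255 to 15.41), *Ccl9* (42.68 CPM), *Clec4e* (7.562 CPM, others up to 1.505), *Cldn1* (2.783 CPM), *Krt18* (4.175 CPM) and *Dhcr7* (33.49 CPM), all high. In replicate 3, *Gbp2b* was high (302.9 CPM, others 67.26 to 151) and *Abca1* low (302.6 CPM). In replicate 1, *Cdh1* was high (7.581 CPM) and *Oas3* low (173.8 CPM, others 269.5 to 322). The others in Tim4+ KCs were *Notch2* in replicate 2 (98.72 CPM), *Smpdl3a* in replicate 5 (1330 CPM) and *Egr2* in replicate 6 (29.97 CPM, others 2.44 to 6.291).

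In CD11b- AM replicate 1, *Ccl9* was high (381.3 CPM, others 206.2 to 233.8), and *Rxra* (336.8 CPM) and *Csf3r* (90.82 CPM) were low. In replicate 2, *Trim29* (77.34 CPM) and *Cebpb* (3207 CPM) were high, in replicate 3 *C1qc* (5.241 CPM) and *Ccr3* (2.125 CPM, others up to 0.2052), and in replicate 4 *Cldn7* (9.683 CPM).

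The tissue difference of Tim4+ KCs and CD11b- AMs was not that of the CRE- pair for 641 genes, by edgeR's test of the difference itself. Higher values of the difference in log2 fold change were found for *Lama4* (6.88), *Ffar4* (5.92), *Siglecf* (5.72), *Spint1* (5.598), *Tmem154* (5.59), *Trem1* (5.27), *Pglyrp1* (4.77), *Egfem1* (4.56), *Clec4f* (4.31) and *Itgax* (1.98), and lower values for *Cd177* (-15.77), *S100a9* (-12.10), *Igf2r* (-9.03), *Krt8* (-8.13), *S100a8* (-7.76), *Lcn2* (-6.50), *Tmem26* (-6.40), *Itga9* (-6.05), *Timd4* (-3.65) and *Itgam* (-2.11). Apart from *Siglecf*, *Itgax* and *Itgam*, each of these genes had at most 1.178 CPM in every library of at least 1 group, so that its value carries no firm size, and the sort of the Cre-bearing cells used Tim4 and CD11b, the proteins of *Timd4* and *Itgam*.

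Against the Tim4- KC and CD11b+ AM pair, 1466 genes differed in the same test. The values of *Timd4* (11.59) and *Itgam* (3.70) were fixed by the sort and are no finding. Higher values were found for *Alox15* (10.79), *Bmp2* (10.06), *Mmp9* (9.16), *Vsig4* (9.09), *Cd209f* (8.72), *F13a1* (8.65), *Cdh17* (8.21) and *Zeb1* (2.86), and lower values for *Clec4b1* (-4.62), *Ffar2* (-4.58), *Thrb* (-4.37), *Adamdec1* (-4.36), *Clec4a2* (-3.99), *Krt79* (-3.83), *Prune2* (-3.58), *Tmsb10* (-3.44) and *Siglecf* (-1.53). Of these, *Alox15*, *Bmp2*, *Mmp9*, *Vsig4*, *Cd209f*, *F13a1*, *Cdh17*, *Ffar2*, *Thrb*, *Adamdec1* and *Krt79* had at most 0.7448 CPM in every library of at least 1 group, so that their values carry no firm size, and the call of *Krt79* was lost with limma-voom (adjusted p = 0.212) and with a replicate block (0.0625).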

How the results depend on the processing

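With at least 10 counts required in every sample, which removes genes that are at 0 in a tissue, 2311 genes were called between Tim4+ KCs and CD11b- AMs (1310 higher in Tim4+ KCs), 363 in the comparison with the CRE- pair (239 higher, 124 lower) and 860 in that with the Tim4- and CD11b+ pair (571 higher). Without the fold cut-off the counts were 7953 (4249 higher, 3704 lower), 1263 (698 and 565) and 3033 (1752 and 1281). Leaving out each replicate in turn gave 4011 to 4356 calls (2540 to 2855 higher, 1459 to 1507 lower), 590 to 654 (346 to 398 and 239 to 265) and 1330 to 1524 (992 to 1121 and 327 to 409). The other settings kept each count within 1.5 times, with 4308 (limma-voom), 4228 (DESeq2), 4221 (RLE factors) and 4100 (without Tim4+ KC replicates 5 and 6) calls in the first comparison, of which 4162, 4158, 4168 and 3901 were calls of the reported fit in the same direction.

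The replicate block gave 4187 calls in the first comparison (2689 higher, 1498 lower), 652 in the second (399 and 253) and 1548 in the third (1157 and 391). In the first, where 3 of 5 samples correlated best with their own number, the numbers do not pair the samples. Same-numbered CD11b- and CD11b+ AMs correlated with r from 0.0751 to 0.141, and 5 of 5 best with their own number, a hint from the data. Among the named genes of the third, the block ended the call of *Krt79* (adjusted p = 0.0625), and it moved the growth factor receptors higher in CD11b- AMs from 1 to 2.

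Signs turned only for values that were not called. The difference of *Cd101* from the CRE- pair (0.14) was -0.64 with limma-voom and below 0 without Tim4+ KC replicate 1 or 3 or CRE- KC replicate 1, 3, 4 or 6 (-0.24, -0.54, -0.07, -0.10, -0.06 and -0.11). Over all left-out replicates it ranged from -0.54 to 0.80. That of *Epcam* (-0.89) was 0.34 without CRE- KC replicate 4 and ranged from -1.59 to 0.34, and its difference from the Tim4- and CD11b+ pair (0.39) was -0.31 and -0.27 without Tim4+ KC replicate 1 and 4 and ranged from -0.31 to 2.101.

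Calls that rest on few reads were lost most often. With limma-voom, *Timd4* (adjusted p = 0.497), *Clec4f* (0.323), *Lama4* (0.614), *Ffar4* (0.0892), *Lcn2* (0.182), *Tmem26* (0.333) and *Itga9* (0.117) were not called against the CRE- pair, nor *Bmp2* (0.0520), *Alox15* (0.0663), *Mmp9* (0.100), *Adamdec1* (0.318) and *Krt79* (0.212) against the other pair. *Lama4* was lost without any CD11b- AM replicate (adjusted p from 0.0543 to 0.0598) and without CRE- AM replicate 3 or 5, *Cdh17* without Tim4+ KC replicate 4 (4.91, adjusted p = 0.132), and *Krt79* without Tim4+ KC replicate 2 or Tim4- KC replicate 1, 2 or 3 (0.0501 to 0.109). Against the CRE- pair, *Timd4* was lost without 10 of the 22 replicates (0.0503 to 0.229), without KC replicates 5 and 6 (0.0821) and with all 33 samples (0.497), which also ended the call of *Tmem26* (0.0670). The cause was not tested.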

Other observations

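Gene families were also counted by symbol, as a description chosen with results known. Several share members with the lists of the report, such as *Tlr1*, *Itgax*, *Ms4a1* and *Atp6v0d2*, so their counts are not separate from those of the lists. Each count below stands beside the shares over all 12295 genes tested, 22.1% called as higher in Tim4+ KCs and 12% as higher in CD11b- AMs. All 16 tested guanylate-binding and immunity-related GTPase genes, which act against intracellular pathogens, were higher in Tim4+ KCs (median log2 fold change 4.58), for example *Iigp1* with 156 ± 37.8 CPM (SD, n = 6) in Tim4+ KCs and 0.383 ± 0.234 CPM (SD, n = 5) in CD11b- AMs. Of 13 cathepsin genes, 7 were higher in Tim4+ KCs and 2 in CD11b- AMs. *Ctsb* had 11810 ± 451 CPM against 2703 ± 138 CPM, whereas *Ctsd* had 5079 ± 374 CPM against 13340 ± 177 CPM and *Ctss* was not called (log2 fold change 0.09, adjusted p = 0.355). Of 18 integrin chain genes, 10 were higher in Tim4+ KCs and 4 in CD11b- AMs, with *Itga9* at 470 ± 55.4 CPM against 0.277 ± 0.263 CPM and *Itgb2*, the β chain shared by CD11a, CD11b and CD11c, at 548 ± 36.6 CPM against 1511 ± 100.9 CPM.

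The MS4A family, to which the CD20 gene belongs, had 5 of 9 members higher in Tim4+ KCs and 2 in CD11b- AMs. *Ms4a6b* (142 ± 34.8 CPM against 0.723 ± 0.202 CPM) and *Ms4a7* (91.3 ± 20.1 CPM against 9.92 ± 1.78 CPM) were on the KC side, and *Ms4a8a* (44.2 ± 11.8 CPM against 180 ± 11.9 CPM) on the AM side. Of 11 Toll-like receptor genes, 5 were higher in Tim4+ KCs and 2 in CD11b- AMs. *Tlr1*, *Tlr11* and *Tlr12* had no count in CD11b- AMs, with 93.2 ± 26.3 CPM, 9.13 ± 3.15 CPM and 146 ± 26.8 CPM in Tim4+ KCs. Among genes of general cell machinery, none of 35 respiratory complex I genes was called by edgeR (median log2 fold change -0.22), 1 of 38 proteasome genes (median -0.24) and 3 of 78 cytosolic ribosomal protein genes (median -0.07) were, while of 16 V-ATPase subunit genes 3 were higher in CD11b- AMs and none in Tim4+ KCs (median -0.68). These 3 were *Atp6v0d2* (-10.58), *Atp6v1c1* (-1.78) and *Atp6v0d1* (-1.11).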
